A study of Mus musculus with 6 samples.

Results

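Of the 54556 genes in the deposited table of islet RNA levels, 9 carry glucose into the cell, phosphorylate it or release it again, or decide between mitochondrial and lactate use of pyruvate. They were taken by symbol. Slc2a2, G6pc2 and Pcx are the forms of mouse β cells. Hk1, Hk2, Ldha and Slc16a1 are normally kept low there. Slc2a1 and Ldhb are the alternative isoforms, placed in neither class. RNA came from whole pancreatic islets of C57BL/6 mice at 8 weeks of age on normal chow. All mice were Mettl3 flox/flox, with loxP sites in Mettl3. The mice of 3 libraries carried no Cre, and those of 3 others, labelled β-Mettl3-KO, carried RIP-Cre. RIP-Cre is driven by a rat insulin promoter. Cre was present in no mouse with an intact Mettl3, so what Cre does by itself and what the deletion does cannot be told apart. No label ties a library to an animal or mentions pooling, and p-values measure library-to-library spread, which may be technical.

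Glucose enters mouse β cells mainly through GLUT2, a transporter with low affinity, and is then phosphorylated, which commits it to glycolysis. G6PC2, an islet glucose-6-phosphatase, runs against that step. Pyruvate goes mainly to mitochondria, where pyruvate carboxylase feeds it into the citric acid cycle. Hexokinases with high affinity, lactate dehydrogenase A and the monocarboxylate transporter MCT1 are held low, which keeps insulin release from answering to low glucose or to circulating lactate and pyruvate. METTL3 is the catalytic subunit of the enzyme that writes N6-methyladenosine (m6A) on mRNA.

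Levels are FPKM, which corrects fragment numbers for gene length and library size, so comparisons of level between genes depend on the gene lengths used. Reads recovered from the FPKM values came to 16398862 to 18387313 per library. The Mettl3 gene itself was at 3.42, 2.89 and 3.93 FPKM in flox/flox replicates 1 to 3 and at 4.06, 4.20 and 4.15 in the libraries labelled knockout. Its log2 difference of 0.25 ± 0.11 (SE, limma adjusted p = 0.12) did not pass although all 3 labelled knockouts were higher. Scaled to each library's own total, the Mettl3 difference was 0.61 (limma adjusted p = 0.0042), and 0.25 relative to the median of all genes. Reads summed over the gene cannot show the loss of some exons, so the genotype is given as labelled. Replicate 3 of each group stood between the other replicates. Among genes at least 1.5-fold apart between replicates 1 and 2, replicate 3 lay between them for 82% in the flox/flox group and 91.8% in the other, while replicates 1 and 2 lay between the remaining pair for 26% to 43.6%. Results are therefore also given with replicate 3 of both groups left out. The defining markers of the islet were present. The β-cell list summed to 256216 to 318210 FPKM in flox/flox libraries and to 111666 to 124925 in the others. Enterocyte markers, of which Vil1 and Anpep made up most of the flox/flox level, summed to 47.1 to 58 FPKM in flox/flox libraries and to 146, 897 and 465 FPKM in labelled-knockout replicates 1 to 3. Fabp2, Rbp2, Fabp1, Apoa4, Alpi, Sis and Cdhr5 had flox/flox means of 0 to 0.855 FPKM. They reached the mean of 1 FPKM needed for testing only through the labelled knockouts, so a higher mean there was fixed beforehand. All 11 tested enterocyte markers rose, beside 16.9% of all tested genes. The number was 8 without labelled-knockout replicates 2 and 3, 1 with replicate 3 of both groups left out and 3 in limma voom on the recovered reads, and Alpi was at 0 in the flox/flox group.

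The members taken as forms of mouse β cells were lower in every library labelled knockout. The transporter Slc2a2 was about 4.84-fold lower, Pcx 2.39-fold and G6pc2 2.12-fold. Among the alternative forms, Ldhb fell as well, Ldha rose unevenly, and Slc2a1 and Hk1 did not pass. Of the 7 members with a mean of at least 1 FPKM, which were tested, 4 fell and 1 rose, while 34% of the 14497 genes tested were called, 17.2% as fallen and 16.9% as risen. The groups did not overlap for 5 of the 7, against 50.5% of all tested genes, with labelled knockouts below for 4 (25.4% of all) and above for 1 (25.1%). A call means a Benjamini-Hochberg adjusted p under 0.05 in limma on log2(FPKM + 0.5). Slc16a1 and Hk2 were below that mean.

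**Figure D1:**
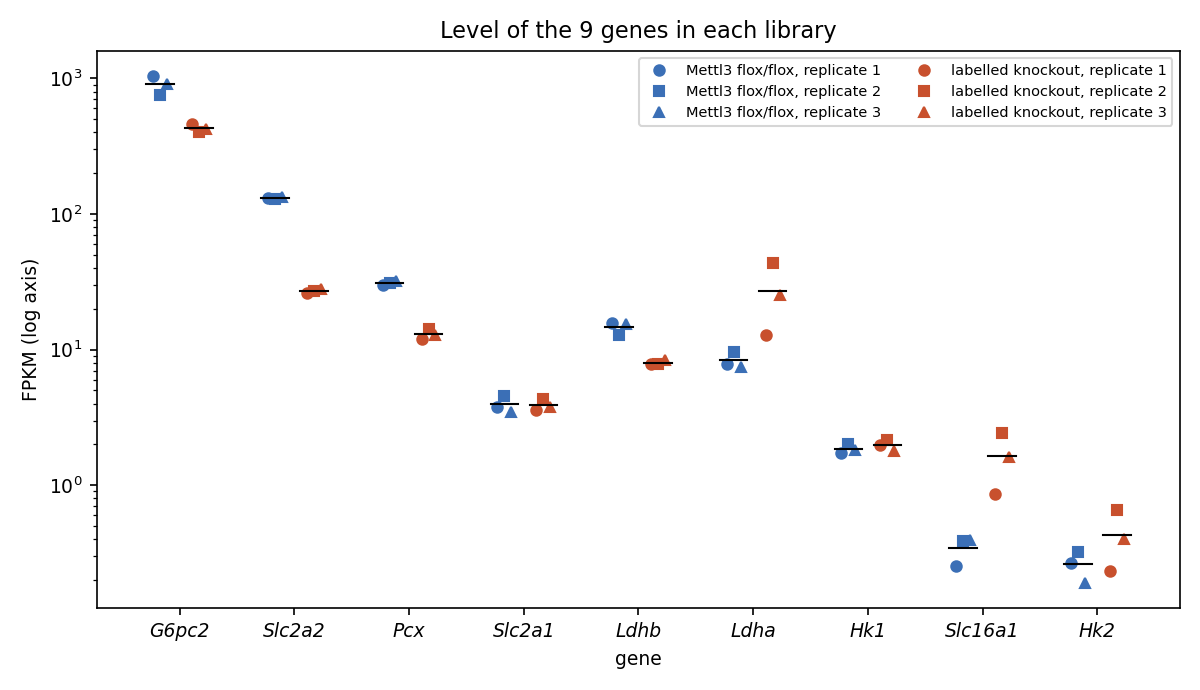
FPKM (log axis) of the 9 genes in each of the 6 libraries, with a black bar at each group's mean. All 3 libraries labelled knockout lie below all 3 flox/flox libraries for G6pc2, Slc2a2, Pcx and Ldhb and above them for Ldha and Slc16a1, and the groups overlap for Slc2a1, Hk1 and Hk2.

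Slc2a2, which encodes GLUT2, lies on the plus strand of chromosome 3 from 28697903 to 28731359 (GRCm38). It was at 132, 129 and 133 FPKM in flox/flox replicates 1 to 3 and at 26.1, 27.1 and 28.1 FPKM in labelled-knockout replicates 1 to 3. These values rest on 10706 to 11508 reads in flox/flox libraries and on 3052 to 3353 in the others, and both groups were tight. The log2 difference was -2.26 ± 0.06 (SE, adjusted p = 1.43e-05), and only 38 of the tested genes fell by more. The call held with replicate 3 of both groups left out (-2.27, adjusted p = 0.00498). An antisense gene, 1700112D23Rik, overlaps part of the locus, from 28702667, and runs beyond it to 28781108. It went from 6.03, 4.02 and 7.08 FPKM to 0.862, 1.20 and 0.80 and fell by 2.07 (adjusted p = 0.000994). The strandedness of the libraries is not given in the sources used here, so reads of the pair may be shared.

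G6pc2 was the most abundant of the 9. It is on chromosome 2 from 69211073 to 69227841 and reverses the phosphorylation of glucose by hydrolysing glucose 6-phosphate. Its level was 1041, 760 and 915 FPKM in flox/flox replicates 1 to 3 and 462, 399.7 and 422 FPKM in the libraries labelled knockout. The flox/flox libraries varied more than the others, and the groups did not overlap. The log2 difference was -1.07 ± 0.13 (SE, adjusted p = 0.00198), a call lost with replicate 3 of both groups left out (-1.05, adjusted p = 0.0673).

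Pcx encodes pyruvate carboxylase, the entry of pyruvate carbon into the citric acid cycle other than by oxidation. It spans chromosome 19 from 4510472 to 4621752. Its level was 29.9, 31.2 and 31.9 FPKM in flox/flox libraries and 12, 14.3 and 12.7 in the others, a log2 difference of -1.23 ± 0.08 (SE, adjusted p = 0.000196). The call held with replicate 3 of both groups left out (-1.19, adjusted p = 0.0216). Lrfn4, on the opposite strand inside the Pcx locus, was at 13.3 to 16.2 FPKM throughout and did not pass (log2 difference -0.02, adjusted p = 0.902).

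Markers of β cells fell in the same libraries. Of the 8 in the list, 7 fell, beside 17.2% of all tested genes, and Iapp did not pass. The median log2 difference was -0.88 over the list, compared with -0.0045 over all tested genes. The fall of Slc2a2 was larger than that of every marker in the list except Mafa (-2.77), whereas those of G6pc2 and Pcx lay between Slc30a8 (-0.91) and Ins2 (-1.29). The number of markers that fell was 3 with replicate 3 of both groups left out. With quantile normalization 5 fell and 1 rose. Without labelled knockouts 2 and 3 the median of the list was -1.03. In RNA from whole islets, fewer β cells and less RNA per β cell cannot be told apart.

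The promoters of the members shared no single feature among those searched. Of 4 short motifs searched on both strands in the 250 bases before each start site (RefSeq, GRCm38.p6, 9 of 9 matched), GTTAAT, the repeated core of hepatocyte nuclear factor 1 sites, and the TATA box TATAAA were in 0 of 9. They were in 6.52% and 13% of 27025 promoters of the same length. ACGTG, the core of the hypoxia response element, was in 5 of 9 (G6pc2, Pcx, Hk2, Slc16a1 and Slc2a1) and in 16.6% of all promoters. The GC box GGGCGG was in 4 of 9 (Pcx, Hk2, Slc16a1 and Slc2a1) and in 32.9% of all. Members with ACGTG thus included genes that fell and genes that did not. Shown are the β-cell forms Slc2a2 (chr3:28697653-28697902, plus strand) and G6pc2 (chr2:69219699-69219948, plus strand, the RefSeq start nearest to the main transcript), and Slc16a1 (chr3:104638414-104638663, plus strand), which is normally kept low. All end at the base before the start site, and capitals mark any of the 4 motifs.
Slc2a2: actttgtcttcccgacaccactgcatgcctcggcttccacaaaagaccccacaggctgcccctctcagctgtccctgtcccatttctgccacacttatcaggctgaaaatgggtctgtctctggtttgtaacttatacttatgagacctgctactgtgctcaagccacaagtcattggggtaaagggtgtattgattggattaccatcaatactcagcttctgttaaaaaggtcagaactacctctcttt
G6pc2: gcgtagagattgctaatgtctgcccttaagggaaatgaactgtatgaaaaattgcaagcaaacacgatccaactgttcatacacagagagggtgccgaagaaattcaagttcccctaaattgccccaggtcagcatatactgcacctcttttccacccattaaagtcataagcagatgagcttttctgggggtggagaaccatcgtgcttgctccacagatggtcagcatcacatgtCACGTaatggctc
Slc16a1: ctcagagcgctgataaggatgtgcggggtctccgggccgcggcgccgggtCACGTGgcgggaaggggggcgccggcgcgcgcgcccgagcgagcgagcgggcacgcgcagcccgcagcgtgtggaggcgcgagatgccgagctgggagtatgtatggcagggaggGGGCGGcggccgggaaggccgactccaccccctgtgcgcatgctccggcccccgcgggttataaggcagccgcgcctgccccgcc

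GLUT1, encoded by Slc2a1, is the transporter of most other cells and of human β cells. Slc2a1 was at 3.79, 4.56 and 3.48 FPKM in flox/flox libraries and at 3.57, 4.30 and 3.78 in the others, so the groups overlapped. Its log2 difference was -0.01 ± 0.12 (SE, adjusted p = 0.937), with a 95% interval of -0.30 to 0.27. Scaled to each library's own total, which shifts the median of all genes by 0.36, its difference was 0.35 (adjusted p = 0.0481), and -0.01 relative to that median. The ratio of Slc2a1 to Slc2a2 was 0.0301 ± 0.00481 in flox/flox and 0.143 ± 0.0133 in labelled-knockout libraries (SD, n = 3 each), a 4.79-fold difference with every labelled-knockout library above every flox/flox library. The exact two-sided permutation p was 0.10, the smallest that 3 against 3 allows, and 0.15 adjusted over the 3 ratios reported.

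Hk1, the hexokinase of brain and red blood cells, was at 1.72, 2.01 and 1.82 FPKM in flox/flox libraries and at 2.00, 2.17 and 1.79 in the others. Groups overlapped, and the log2 difference was 0.08 ± 0.12 (SE, adjusted p = 0.641) with a 95% interval of -0.21 to 0.37. Scaled to own totals it was 0.40 (adjusted p = 0.0303), and 0.04 relative to the median of all genes. Hk2, the insulin-responsive hexokinase of muscle and fat, had 24, 28 and 17 reads in flox/flox libraries and 29, 77 and 50 in labelled-knockout replicates 1 to 3. Its level was 0.192 to 0.325 FPKM in flox/flox libraries and 0.233, 0.66 and 0.404 FPKM in the others, and the groups overlapped. It was too low for the main test. In a fit with no filter on low values its log2 difference of 0.27 did not pass (adjusted p = 0.493). The ratio of Hk2 to Hk1 was 0.141 ± 0.0304 in the flox/flox group and 0.215 ± 0.094 in the other (SD, n = 3 each; exact permutation p = 0.30), with overlap. Without labelled knockouts 2 and 3 the log2 difference of this ratio turned from 0.53 to -0.24.

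**Figure D2:**
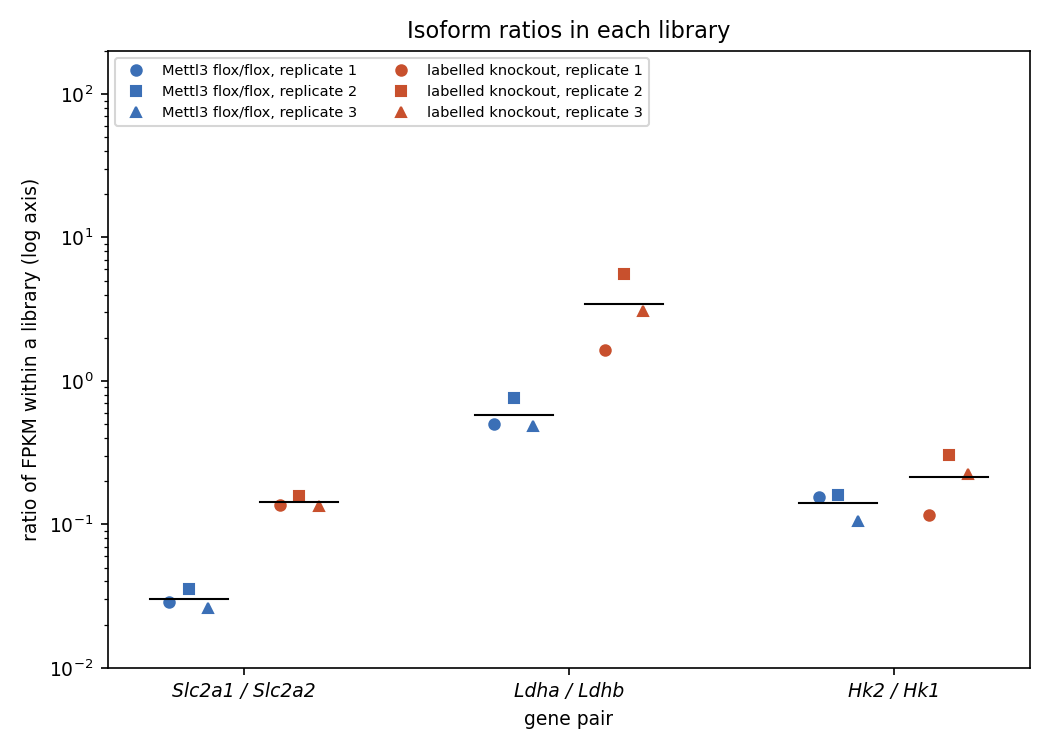
Ratios of FPKM between 2 genes of the same step in each library (log axis), with a black bar at each group's mean. Slc2a1 to Slc2a2 and Ldha to Ldhb are higher in all 3 libraries labelled knockout, while Hk2 to Hk1 overlaps between groups.

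Lactate dehydrogenase is a tetramer of A and B subunits, encoded by Ldha and Ldhb, which interconvert pyruvate and lactate. Ldhb, on chromosome 6, was at 15.8, 12.7 and 15.4 FPKM in flox/flox libraries and at 7.85, 7.78 and 8.32 in the others. It fell by 0.83 ± 0.09 on the log2 scale (SE, adjusted p = 0.00139), and the call held with replicate 3 of both groups left out (-0.82, adjusted p = 0.0462). Ldha, on chromosome 7 from 46841475 to 46855627, went the opposite way, from 7.87, 9.66 and 7.43 FPKM to 12.8, 43.5 and 25.5 in labelled-knockout replicates 1 to 3. It rested on 365 to 462 reads in flox/flox libraries and on 883, 2815 and 1748 in the others. All 3 libraries labelled knockout were above the flox/flox group, but they spread over more than 3-fold among themselves.

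The log2 difference of Ldha was 1.50 ± 0.40 (SE, adjusted p = 0.029). The call was lost when any flox/flox library, or labelled knockout 3, was omitted (adjusted p = 0.0587 to 0.0871), and with replicate 3 of both groups left out (1.39, adjusted p = 0.20). Without labelled-knockout replicates 2 and 3 the difference was 0.60 (adjusted p = 0.135). The ratio of Ldha to Ldhb was 0.58 ± 0.155 in flox/flox libraries and 1.63, 5.59 and 3.06 in labelled-knockout replicates 1 to 3, with no overlap. Whether a ratio lies above or below 1 depends on the gene lengths used for FPKM (3310 bases for Ldha and 1570 for Ldhb), so no order of the subunits is read from it. The exact permutation p was 0.10 and the adjusted p 0.15.

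Slc16a1 encodes MCT1, which carries lactate and pyruvate across the plasma membrane. It had 17, 25 and 26 reads in flox/flox libraries and 80, 210 and 149 in labelled-knockout replicates 1 to 3. The levels were 0.254, 0.391 and 0.396 FPKM against 0.867, 2.43 and 1.62 FPKM, with no overlap, a 4.73-fold difference of the means. The mean of 0.993 FPKM over all libraries put it just below the level required for testing. In the fit with no filter on low values, in which 13.2% of 32456 genes were called and 7.25% rose, the log2 difference was 1.27 (adjusted p = 0.0449).

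Ldha, Slc16a1 and Hk2 had the same order of labelled-knockout libraries as the summed enterocyte markers, with replicate 2 highest and replicate 1 lowest. Pcx (12, 14.3 and 12.7 FPKM) and Slc2a1 (3.57, 4.30 and 3.78) had this order too. G6pc2 had the reverse, and Slc2a2, Hk1 and Ldhb had neither. Among β-cell markers Mafa, Pdx1 and Slc30a8 had it, and Ins1, Iapp and Ucn3 had the reverse. Replicate 3 lay between the others for 91.8% of the genes that set replicates 1 and 2 apart. Most such genes thus had 1 of these 2 orders. The enterocyte sum was 146 FPKM in replicate 1, where Ldha was at 12.8 FPKM, and 897 FPKM in replicate 2, where Ldha was at 43.5 FPKM. The part of these transcripts in the result was not tested. Slc2a2, by comparison, differed little among the same 3 libraries. All 7 tested lymphocyte markers rose, beside 16.9% of all tested genes. In flox/flox libraries the sums of their list were on average too low for all 7 to have a mean of 1 FPKM. Some were thus tested only through the labelled knockouts, so their higher mean there was fixed beforehand. The lymphocyte list summed to 4.10 to 7.52 FPKM in flox/flox libraries and to 97.5, 90.01 and 89.3 in labelled-knockout replicates 1 to 3. Its T-cell markers had the enterocyte order as well (Cd3d at 1.37, 4.03 and 2.71 FPKM, Cd8a at 1.19, 4.32 and 2.40, Trbc2 at 12.2, 27.6 and 14.4, and Cd3e and Cd3g likewise). Its B-cell markers Cd79a, Cd79b and Ms4a1 had the reverse order. The part of these transcripts was not tested either.

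**Figure D3:**
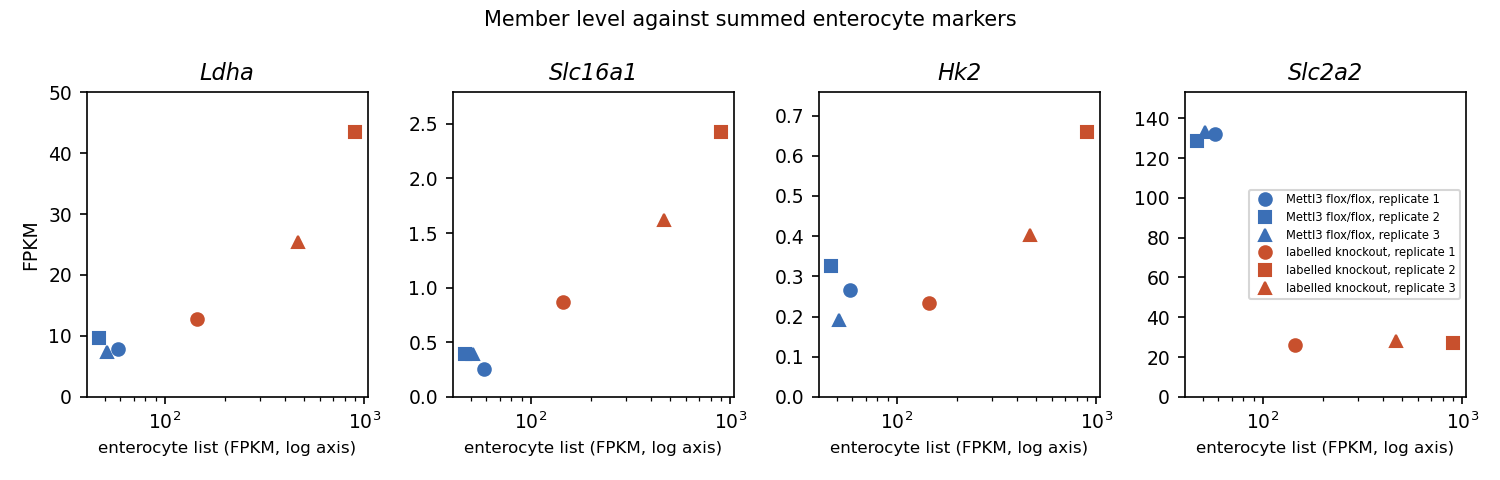
Level of Ldha, Slc16a1, Hk2 and Slc2a2 (FPKM, linear axis) against the summed FPKM of 12 enterocyte markers (log axis), 1 point per library. Among the 3 libraries labelled knockout the first 3 genes are highest in replicate 2 (43.5, 2.43 and 0.66 FPKM), where the enterocyte sum is 897 FPKM, while Slc2a2 stays at 26.1 to 28.1 FPKM.

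The order of levels among the 9 genes changed between the groups. By the deposited FPKM, and so with its gene lengths, it ran in flox/flox libraries G6pc2, Slc2a2, Pcx, Ldhb, Ldha, Slc2a1, Hk1, Slc16a1 and Hk2, and only Slc16a1 and Hk2 overlapped as neighbours. In the libraries labelled knockout Ldha stood second, overlapping with Slc2a2 (27.3 ± 15.4 and 27.1 ± 0.983 FPKM, SD, n = 3 each), and Slc16a1 overlapped with Hk1. The lowest Ldha library also fell within the range of Pcx, while the remaining neighbours kept apart in both groups. G6pc2 remained first and Hk2 last.

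The sequence GGACT is a common form of the motif that METTL3 methylates, and its matches were counted on the sense strand of the main transcript of each member (GENCODE M21, GRCm38). It occurred 6 times in Slc2a2, 4 in G6pc2, 3 in Pcx, 3 in Slc2a1, 9 in Hk1, 10 in Hk2, 5 in Slc16a1, 1 in Ldha and 0 in Ldhb. Per kilobase this was 0 to 2.34, and the median over 11841 transcripts of tested genes was 1.06, with at least 1 match in 91.9%. Slc2a2 had 1.08 and Slc2a1 0.92 per kilobase, and Ldhb, which fell, had no match. A match shows only the letters, not a methylated site. The match nearest to the stop codon that lay with its neighbours in a single exon is shown for 5 members, with GGACT in capitals. That of Slc2a2 is in the coding part of exon 9 (chr3:28726310-28726330, plus strand), that of G6pc2 in the coding part of exon 5 (chr2:69226775-69226795, plus strand) and that of Pcx in the coding part of exon 17 (chr19:4619825-4619845, plus strand). In Slc2a1 it is in the coding part of exon 10, just before the stop codon (chr4:119136423-119136443, plus strand), and in Hk1 in the 3′ UTR in exon 22 (chr10:62269749-62269769, minus strand).
Slc2a2: tgtcggtgGGACTtgtgctgc
G6pc2: cttttgctGGACTcgtgagaa
Pcx: gggctcggGGACTgtacgcag
Slc2a1: ctgggggcGGACTcccaagtg
Hk1: gaggaaggGGACTgcagtaac

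Genes of the other steps of glucose use were taken as 5 lists. Of 82 genes in 5 lists, 66 were tested, of which 15 rose, 11 fell and 40 did not pass, with a median log2 difference of 0.11. Beside the 16.9% risen and 17.2% fallen among all tested genes, these counts are near the background. Among the other GLUTs, Slc2a6, a lysosomal hexose transporter, rose by 0.60 ± 0.10 (SE, adjusted p = 0.00651) and the remaining 3 of 4 tested did not pass. That call was lost with replicate 3 of both groups left out (adjusted p = 0.0984). Slc2a5, the fructose transporter GLUT5, was at 68.9 to 81.6 FPKM in flox/flox libraries and at 66.5 to 81 in the others, second among glucose transporter genes in the former and first in the latter.

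Genes of glucose 6-phosphate handling fell in 2 of 6 cases and rose in 1, beside 17.2% and 16.9% of all tested genes. Those that fell were Slc37a4, the transporter that moves glucose 6-phosphate into the endoplasmic reticulum, where G6PC2 acts, at -0.80 ± 0.08 (SE, adjusted p = 0.00102), and G6pc3, the ubiquitous glucose-6-phosphatase, at -0.32 ± 0.08 (SE, adjusted p = 0.0254), which own-total scaling turned to 0.07 (adjusted p = 0.456). Slc37a4 was at 34.2 to 35.6 FPKM in the flox/flox group and at 17.8 to 21.5 FPKM in the other. The gene with the deposited symbol Pgm1, on chromosome 5, rose by 0.62 ± 0.07 (SE, adjusted p = 0.00133). Without labelled knockouts 2 and 3 its difference was 0.61. The gene with the symbol Pgm2, on chromosome 4, had 0 reads in every library. Which of them encodes the main phosphoglucomutase was not examined. G6pc3 lost its call when replicate 1 or 3 of the flox/flox group, or 2 or 3 of the labelled knockouts, was omitted (adjusted p = 0.0668 to 0.0872).

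In glycolysis 6 of 22 tested genes rose, 4 fell and 12 did not pass, again beside 16.9% and 17.2% of all tested genes. With own-total scaling the split was 14 risen and 2 fallen, while 7550 of all 14497 tested genes rose and 716 fell. Eno3, the muscle enolase, fell from 53.5, 42.4 and 49.3 FPKM to 15.4, 19.7 and 18.6, a log2 difference of -1.41 ± 0.12 (SE, adjusted p = 0.000588). Eno2, the neuroendocrine enolase, fell by 0.46 ± 0.08 (SE, adjusted p = 0.00701) and Pfkfb2, which makes and breaks down the activator of phosphofructokinase, by 0.81 ± 0.08 (SE, adjusted p = 0.000872). Pgam2, the muscle phosphoglycerate mutase, rose by 1.45 ± 0.17 (SE, adjusted p = 0.00139) and Pfkfb3, a relative of Pfkfb2, by 1.01 ± 0.11 (SE, adjusted p = 0.00115). The call of Eno2 was lost with replicate 3 of both groups left out (adjusted p = 0.101), as the list's count fell from 10 to 4. Enolase isoforms moved apart, since Eno1, the ubiquitous form, rose, with 22.7 to 26.9 FPKM in flox/flox libraries and 29.9 to 34.4 FPKM in the others (adjusted p = 0.0161).

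Fbp2, the muscle fructose bisphosphatase, rose from 0.225, 0 and 0.138 FPKM to 0.784, 8.88 and 4.50 FPKM (log2 difference 2.67 ± 0.69, SE, adjusted p = 0.0256). With a flox/flox mean of 0.121 FPKM it was tested only through the labelled knockouts, so a higher mean there was fixed beforehand. It followed the order of the enterocyte sum, whose part was not tested. The call was lost when labelled knockouts 2 and 3 were omitted as a pair (adjusted p = 0.0901) and with replicate 3 of both groups left out (0.185). Fbp2 also lost it when any single flox/flox library, or labelled knockout 2 or 3, was omitted (adjusted p = 0.0567 to 0.09). With all 6 libraries it was lost in limma voom (adjusted p = 0.143), with quantile normalization (0.0595) and with no filter on low values (0.0605). Hkdc1, a further hexokinase chosen after its values were seen, had that order too, at 0.308, 4.74 and 2.16 FPKM against 0.142 to 0.283, and did not pass (adjusted p = 0.0868).

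**Figure D4:**
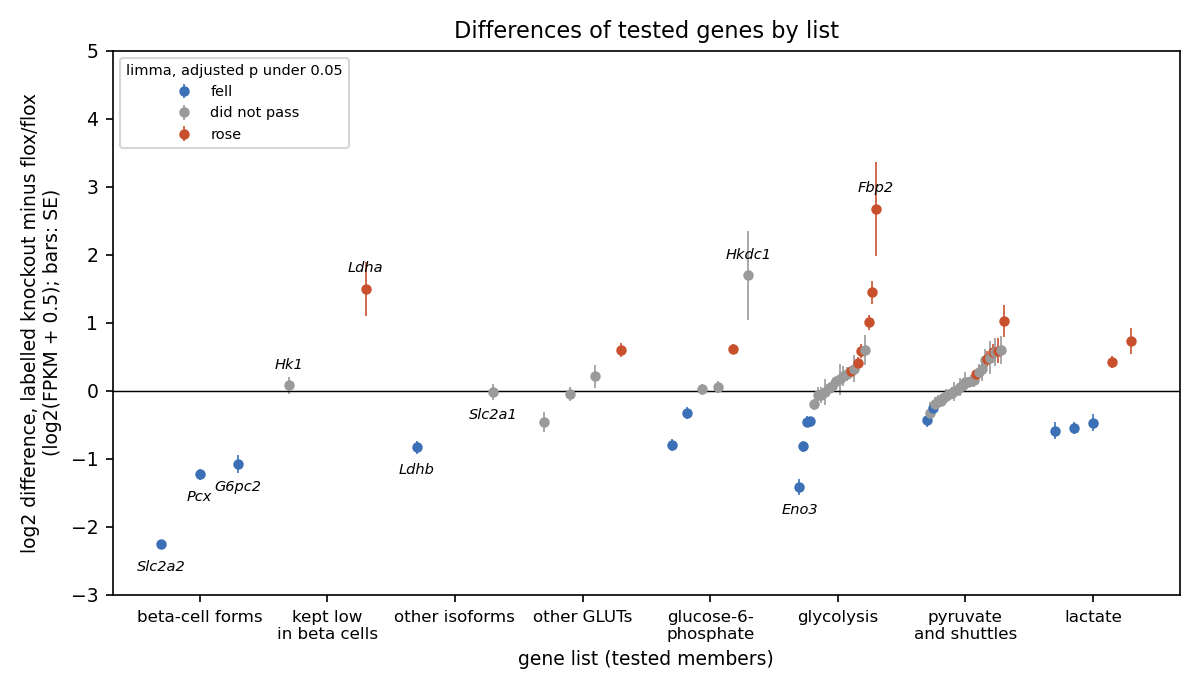
Log2 differences (labelled knockout minus flox/flox, with standard errors as bars) of the tested members and of the tested genes in the 5 lists, coloured by limma call at adjusted p under 0.05. Slc2a2 lies lowest at -2.26 and Fbp2 highest at 2.67, and the lists hold genes on both sides of 0.

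Among genes that take up and oxidise pyruvate or move reducing equivalents, 5 of 29 rose, 2 fell and 22 did not pass, beside 16.9% and 17.2% of all tested genes. With own-total scaling 22 rose and 0 fell, while 7550 of all 14497 tested genes rose and 716 fell. Me2, the mitochondrial malic enzyme, rose by 1.03 ± 0.23 (SE, adjusted p = 0.017), Cs, citrate synthase, by 0.59 ± 0.18 (SE, adjusted p = 0.0441) and Pdk1, which inhibits pyruvate dehydrogenase, by 0.57 ± 0.12 (SE, adjusted p = 0.0146). Me2 (8.09, 16.2 and 11.6 FPKM in labelled-knockout replicates 1 to 3) and Cs (12.1, 20.2 and 14.5 FPKM) had the order of the enterocyte sum, whose part was not tested. Without labelled knockouts 2 and 3 their differences were 0.55 (adjusted p = 0.143) and 0.27 (adjusted p = 0.265). Gpd2, the glycerol phosphate shuttle enzyme of mitochondria, fell by 0.43 ± 0.10 (SE, adjusted p = 0.021) and Pck2, the mitochondrial phosphoenolpyruvate carboxykinase, by 0.26 ± 0.06 (SE, adjusted p = 0.0217), though scaling to own totals turned Pck2 to 0.14 (adjusted p = 0.0806). The subunits of pyruvate dehydrogenase and the mitochondrial pyruvate carrier genes did not pass except Pdha1, which was at 13.6 to 14.3 FPKM in flox/flox libraries and at 16.5 to 16.7 in the others and rose (adjusted p = 0.0167). Of these 7 calls in the list, the count went to 3, 4 and 2 when flox/flox library 1, 2 or 3 was omitted, to 0 without labelled knockout 3, and to 0 with replicate 3 of both groups left out.

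Of the other genes of lactate transport, all 5 tested passed, 2 as risen and 3 as fallen, beside 16.9% and 17.2% of all tested genes. Bsg, the chaperone that brings MCT1 to the membrane, rose by 0.43 ± 0.09 (SE, adjusted p = 0.0138) and was at 232 to 251 FPKM in the flox/flox group and at 303 to 361 FPKM in the other. Slc16a8 rose by 0.73 ± 0.19 (SE, adjusted p = 0.0267), a call lost with the replicate block (adjusted p = 0.0634), with quantile normalization (0.0962) and when any single library but flox/flox 2 was omitted (0.0526 to 0.0685). Its means were 0.662 FPKM in flox/flox and 1.43 FPKM in labelled-knockout libraries, so it was tested only through the latter. Emb, another chaperone of monocarboxylate transporters, fell by 0.55 ± 0.09 (SE, adjusted p = 0.00542), Ldhd, the D-lactate dehydrogenase, by 0.58 ± 0.12 (SE, adjusted p = 0.0123) and Slc16a11 by 0.47 ± 0.13 (SE, adjusted p = 0.0338). With own-total scaling 2 rose and 0 fell, while 7550 of all 14497 tested genes rose and 716 fell. The count of calls went to 3 or 2 when flox/flox library 1 or 3 was omitted, to 3 or 2 without labelled knockout 2 or 3, and to 0 with replicate 3 of both groups left out.

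The genes nearest to Slc2a2 in pattern over the 6 libraries, by the Euclidean distance between centred log2(FPKM + 0.5) values among 7104 other genes with a mean of at least 5 FPKM and a symbol that is not a predicted-gene or Rik name, were T2, Fam151a and Carmil3, at distances of 0.225, 0.277 and 0.30. Fam151a was at 23.7 to 26.7 FPKM in the flox/flox group and at 3.96 to 4.76 FPKM in the other. Nearest to Ldha were Oit1, Xdh and Slc9a3r1, at 0.499, 0.506 and 0.507. Slc9a3r1, a scaffold protein of microvilli, was at 11.2 to 11.3 FPKM in flox/flox libraries and at 20.7, 46.3 and 30.9 in labelled-knockout replicates 1 to 3, and Xdh at 2.98 to 4.99 and at 4.19, 21.8 and 12. Likeness to Slc2a2 or Ldha is what chose these genes.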

How the data were processed

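Of 6 islet RNA libraries, groups and replicate numbers came from the sample titles. The authors deposited 1 table of FPKM values. The submitters' processing notes name GRCm38.p6, DESeq2 1.16.1, HISAT2 2.0.5 and featureCounts 1.5.0-p3, without roles or settings. Multiplied by gene length, every library's values were whole multiples of a step (100% within 0.1 of a whole number), which were taken as reads. The deposited values already carry a median-of-ratios scaling, which sets the typical gene to no change. Genes with a mean of at least 1 FPKM were tested with limma 3.58.1 (R 4.3.3, variance trend) on log2 values computed from the deposited FPKM with 0.5 added, two-sided, with Benjamini-Hochberg adjustment over 14497 genes. Differences on that scale understate the change of low genes. The procedure was tested on simulated data. Ratios were compared by exact permutation. Where a symbol had 2 rows (Aldoa and Itgam), the higher was used.

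Members, lists and alternatives were chosen with earlier results of these data known. Named genes are the 9 members, Mettl3, up to 3 genes per list and direction with the largest difference past the threshold, and the 3 genes nearest in pattern to Slc2a2 and to Ldha. Some genes and ratios are not reported here, and the lists and the adjustment over ratios were computed without them. Others were chosen after their values were seen (Pdha1, Eno1, Slc2a5, Hkdc1 and the markers named). Genes with processed copies elsewhere in the genome, such as Ldha, Gapdh and Aldoa, can lose or share reads. The 95% intervals come from limma and rest on the spread between libraries.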

Additional observations from a re-analysis of the deposited data

How the results depend on the processing

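Across 16 alternatives the log2 differences of Slc2a2 and Pcx kept their direction and call. Without labelled knockouts 2 and 3 as a pair, calls were lost for G6pc2 (-0.96, adjusted p = 0.0966), Ldhb (-0.85, 0.0634) and Ldha (0.60, 0.135), which left 0 members risen and 2 fallen. With replicate 3 of both groups left out, an alternative chosen after seeing the data, calls were lost for G6pc2 (-1.05) and Ldha (1.39), which left 0 members risen. Ldha also lost its call with no filter on low values (1.50, adjusted p = 0.068), while Slc16a1 entered that test and passed (1.27). Leaving out 1 library at a time gave 1.08 to 1.95 for Ldha and 0 to 1 members risen. Own-total scaling turned Slc2a1 to 0.35 and took Hk1 to 0.40 past the threshold, so 3 members rose, as did 7550 of all 14497 tested genes. Relative to the median of all genes, which that scaling shifted by 0.36, the differences of Slc2a1 and Hk1 were -0.01 and 0.04. The cause of these changes was not tested, beyond the smaller number of libraries where some were left out. The log2 difference of the Hk2 to Hk1 ratio turned to -0.24 without labelled knockouts 2 and 3, and that of Ldha to Ldhb was then 1.52.

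Over all genes, calls numbered 3090 (1247 rose) when genes needed a mean of 5 FPKM, which tests fewer genes, 8266 (7550 rose, 716 fell) under scaling to own totals, 1317 (771 rose, 546 fell) without labelled knockouts 2 and 3, 925 (505 rose, 420 fell) with replicate 3 of both groups left out, and 2780 to 4236 with 1 library left out (1370 to 2106 rose, 1410 to 2130 fell). Calls among the other GLUTs numbered 3 with own-total scaling, 2 with quantile normalization, limma voom or the replicate block, 1 to 2 with 1 library left out and 0 without labelled knockouts 2 and 3 or without replicate 3 of both groups. Glucose 6-phosphate genes had 5 calls with own-total scaling and 1 without labelled knockouts 2 and 3. Glycolysis genes had 16 with own-total scaling (14 rose, 2 fell), 5 without labelled knockouts 2 and 3 and 4 without replicate 3 of both groups. Pyruvate and shuttle genes had 22 with own-total scaling (all risen), 0 to 9 with 1 library left out and 0 in either of the latter. Lactate genes had 3 when a mean of 5 FPKM was needed, 2 under scaling to own totals, 2 to 5 with 1 library left out and 0 in either of the latter. Of 20 named genes of the lists, 5 kept their call in all 16 alternatives.

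Deviations from the group means correlated weakly between libraries of equal replicate number (0.0811, 0.0751 and 0.0423) and at -0.0679 to -0.0106 between those of unequal number. Each library thus correlated best with its own number. Whether the numbers pair the libraries was not tested, and the main test did not pair them. With the replicate block 2313 genes rose and 2346 fell, and no member's call changed, while Slc16a8 among the named list genes lost its call (adjusted p = 0.0634). Precision was limited for Hk2 (17 to 77 reads) and Slc16a1 (17 to 210 reads).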

Other observations

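The remaining marker lists describe the libraries in which these genes were measured, and most of their counts moved with the libraries or the scaling used. Over all tested genes 17.2% fell and 16.9% rose in the main fit. Endothelial markers, with a summed level of 594 to 609 FPKM in flox/flox and 302 to 344 FPKM in labelled-knockout libraries, fell in 8 of 8 cases. The count was 5 with own-total scaling or without labelled knockouts 2 and 3, and 2 with replicate 3 of both groups left out. Acinar markers were at a sum of 841, 2566 and 1352 FPKM in the flox/flox libraries, against 715, 382 and 525 FPKM in the labelled knockouts. Their count of 10 of 12 fallen went to 2 with own-total scaling, to 1 with the replicate block or without flox/flox replicate 2, and to 0 with no filter on low values, without flox/flox replicate 3, without labelled knockout 2 or 3, or with replicate 3 of both groups left out.

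Of 7 stellate and fibroblast markers 5 rose and 1 fell, beside 16.9% and 17.2% of all tested genes. With replicate 3 of both groups left out 1 rose and 0 fell. The median log2 difference of that list was 0.54 with all libraries and 0.54 without labelled knockouts 2 and 3. Of 5 cycling markers 4 rose, which went to 1 without labelled knockouts 2 and 3 and to 0 with replicate 3 of both groups left out. Of 7 macrophage markers 1 rose (Lyz2) and 3 fell, and the count fallen was 1 without flox/flox replicate 3 or without labelled knockout 3 and 0 with replicate 3 of both groups left out or own-total scaling. The single calls in the α-cell (Ttr), δ-cell (Rbp4) and red blood cell (Hba-a2) lists were all lost with replicate 3 of both groups left out, without labelled knockout 3 and without flox/flox replicate 2 or 3. The red blood cell list summed to 43.1 to 56.5 FPKM in flox/flox libraries and to 47.1, 18.7 and 30.5 FPKM in labelled-knockout replicates 1 to 3. Ppy of PP cells did not pass. Of the 5 tested duct markers 0 passed in limma and 0 had an unadjusted p under 0.05, while 0 passed in limma voom and 1 passed with quantile normalization, with the replicate block and with own-total scaling.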
